A study of Homo sapiens with 16 samples.

Results

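The genes described here are 32 transcripts that p53 is known to activate or that control p53, taken from a list of 33 symbols by matching each symbol to the 20166 symbols of the deposited expression table. The remaining symbol, TIGAR, has no row under that name and was dropped. RNA came from RWPE1, an established line of human prostate epithelial cells, engineered with an empty vector (an altered pTRIPZ; 6 libraries), with a wild-type homeobox transcription factor for over-expression (6 libraries), or with its T164A mutant (4 libraries). All 3 groups are the same line, all were snap frozen, and the labels give no time of induction, no clone and no batch. In the libraries labelled T164A the over-expressed gene was not raised to the wild-type level and lay only a little above the vector range, so the label is not borne out by it; these libraries are called by their label throughout, and every direction given for them compares libraries, not a checked mutant. Nothing in the labels says that libraries of a group came from separate cultures, and a p-value here covers their spread alone, which could be technical. The members were divided by role into 5 feedback regulators, 6 arrest genes, 12 apoptosis genes, 4 metabolic genes, 3 repair genes and 2 signalling genes.

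p53 is a transcription factor that is held at a low level by the ubiquitin ligase MDM2 and its partner MDM4 and is stabilised by DNA damage and other stress. It then activates genes that stop the cell cycle, genes that lower the threshold for apoptosis, and genes for antioxidant defence and DNA repair, as well as MDM2 itself, which closes a feedback loop. RWPE1 cells were immortalised with human papillomavirus, whose E6 protein promotes the degradation of p53. Several members also have p53-independent inputs: SFN and PERP are abundant in stratified epithelium, where the p53 relative p63 drives PERP, and SESN2, GDF15 and PMAIP1 respond to ATF4.

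Estimated depth was 12300000 to 19200000 reads per library. All 32 members lay above an estimated level of 3 reads in every library, at 2.06 to 2.48 on the deposited log2 scale. That level covers counting error only, and like the depth it was extrapolated from values above 11.5. Values are given as deposited log2 values, differences on that scale with their standard error from limma (SE), and adjusted p-values are from limma with Benjamini-Hochberg adjustment over all 20166 symbols, with a threshold of 0.05. The deposited values are not scaled to transcript length, so levels are not compared between genes. Wild-type replicate 14 and the library labelled T164A replicate 93 stood apart from the rest of their groups: over 8842 symbols, the SD of the difference to each other library was 0.192 to 0.284 for the former and 0.266 to 0.296 for the latter, against 0.1 to 0.186 and 0.0938 to 0.117 among the others. Basal epithelial markers were present in all libraries, with KRT5 at 15.29 or above in each. The 10 prostate luminal markers, among them KLK3, did not behave alike in the 3 groups. Their summed level was 10.23 to 11.16 (log2) in vector, 15.68 to 16.72 in wild type and 11.58 to 11.70 in the libraries labelled T164A. The sum was set mainly by KRT8 and KRT18 in vector (means 9.55 and 9.09) and in the libraries labelled T164A (10.23 and 10.11). In wild type KLK3 was the highest of the 10 (mean 15.11). All 10 were called higher in wild type than in vector, against 21% of all symbols. The libraries labelled T164A had 5 called higher and 2 lower, against 37.1% and 27.2% of all symbols. HOXB13 rose there by 4.52 (SE 0.18) and STEAP2 by 2.59 (SE 0.13), while KLK2, KLK3 and HPN lay below the level of 3 reads in all 4 of these libraries and in 5, 3 and 6 of the 6 vector libraries. The summed level of 10 basal markers was 18.09 to 18.33, 17.35 to 17.80 and 16.82 to 17.03 in the same order. A further 8 genes, chosen because an earlier analysis of these libraries found them high in T164A (IRS4 and DACH1 among them), were each below the level of 3 reads in all 6 vector libraries. Their summed level was 2.84 to 3.79 in vector, 9.68 to 10.72 in wild type and 14.15 to 14.25 in the libraries labelled T164A. Of 9 measured markers of fibroblasts, endothelium and leukocytes, 1 was called higher and 3 lower in wild type than in vector (44.4%, against 45.5% of all symbols). The libraries labelled T164A had 2 called higher and 4 lower (66.7%, against 64.4% of all symbols). Their summed level, set mainly by COL1A1, was 10.57 to 11.09 in vector, 10.15 to 10.56 in wild type and 9.30 to 9.73 in the libraries labelled T164A, with no overlap. COL3A1 and LUM were below the level of 3 reads in all 6 vector libraries and stood at 6.61 to 6.98 and 4.52 to 5.23 in the libraries labelled T164A. VWF was at 3.16 to 4.03 in vector and 5.91 to 7.23 in wild type. CD3E and CDH5 were below the level of 3 reads in every library. The part of these marker differences in the results below was not tested. In bulk RNA, fewer cells of a type and less RNA per cell cannot be told apart.

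**Figure D1:**
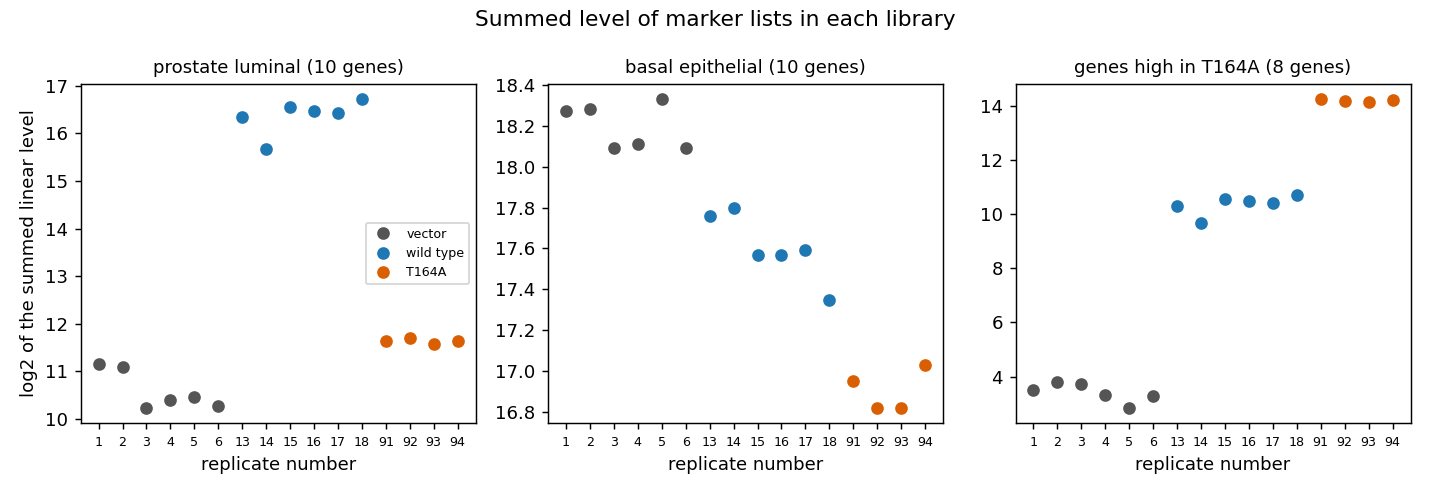
Summed level of 3 marker lists in each library (log2 of the sum of linear values, vertical axis) by replicate number (horizontal axis), with vector in grey, wild type in blue and T164A in orange. The prostate luminal list is high in the 6 wild-type libraries (15.68 to 16.72) and the third list in the 4 libraries labelled T164A (14.15 to 14.25).

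The DNA element that p53 binds is made of a pair of half-sites, each with 3 purines, a core and 3 pyrimidines. Promoter windows from 250 bases before to 50 after the annotated start (RefSeq, GRCh38.p14) were found for 26 of 32 members, and 3 of these (11.5%) held an exact p53 half-site, on either strand since the motif reads the same on both. Of all 35116 windows of that length, 6.63% held one. A pair of half-sites at most 13 bases apart was in 0 of 26 member windows and 0.0285% of all windows. Only exact matches in these windows were searched, so an element elsewhere or with a mismatch would be missed. The 3 matches are shown because their genes, PLK2, AEN and FDXR, gave 3 different patterns among the libraries. Each stretch is written 5′ to 3′ on the strand of the gene, with the half-site in capitals. For PLK2 it is chr5:58460169-58460278 on the minus strand, with the half-site 132 to 123 bases before the start. The AEN stretch is chr15:88621246-88621339 on the plus strand, with the half-site 34 to 25 bases before the start. For FDXR it is chr17:74872995-74873065 on the minus strand, with the half-site 11 to 2 bases before the start.
PLK2: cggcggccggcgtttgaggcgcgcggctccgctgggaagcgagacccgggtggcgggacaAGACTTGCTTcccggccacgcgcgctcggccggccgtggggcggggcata
AEN: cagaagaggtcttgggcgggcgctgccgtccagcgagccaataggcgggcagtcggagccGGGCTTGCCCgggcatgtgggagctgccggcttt
FDXR: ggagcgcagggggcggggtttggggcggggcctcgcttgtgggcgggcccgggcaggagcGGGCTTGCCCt
A match is a description of these letters and no measure of binding. AEN and FDXR held the same 10 letters. PLK2 fell by 3.48 and AEN rose by 1.25 in the libraries labelled T164A relative to vector, and FDXR was not called in any of the 3 comparisons as first fitted.

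Wild type was compared with vector to ask how the members' levels differed when the wild-type construct was over-expressed. Of the 32 members, 8 were higher and 15 lower (limma), or 71.9% called, against 45.5% of all symbols (21% higher and 24.5% lower). Among the 10040 symbols with mean levels in the range of the members other than TNFRSF10C, 66.4% were called, so the members' share was near that of genes at their level. The groups did not overlap for 18 members (29.4% of all symbols), and 2 members were called at 2-fold or more (8.89% of all symbols). Among the 10040 symbols at the members' levels these numbers were 4522 and 431. The median difference of the members was -0.16, against -0.05 over all symbols. By role, 0 of 6 arrest genes rose and 5 fell, 3 of 12 apoptosis genes rose and 5 fell, and the 4 metabolic genes had 1 rise and 1 fall. Of the 5 feedback regulators 1 rose and 2 fell, of the 3 repair genes 2 rose and 1 fell, and the 2 signalling genes went opposite ways.

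The libraries labelled T164A were compared with vector in the same way, as libraries under that label. In them 11 members were higher and 18 lower (limma), or 90.6%, against 64.4% of all symbols (37.1% higher and 27.2% lower) and 83.8% of the symbols at the same levels. The groups did not overlap for 27 members (55.5% of all symbols), and 11 were called at 2-fold or more (33.1% of all symbols). Among the 10040 symbols at the members' levels these numbers were 7428 and 2834. The median difference of the members was -0.38, against 0.11 over all symbols. Quantile normalization moved the median difference of well measured symbols (a mean of 6 or more) by -0.17 and centring on the median moved it by -0.15. The share of called symbols that were higher was 57.7%, or 47.2% and 50.9% under those scalings, and the members then had 9 rises and 21 falls, or 10 and 20. The arrest genes had 0 rises and 5 falls of 6, the apoptosis genes 6 and 6 of 12, the metabolic genes 2 and 0 of 4, the feedback regulators 2 and 3 of 5, the repair genes 1 and 2 of 3, and the signalling genes 0 and 2 of 2.

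**Figure D2:**
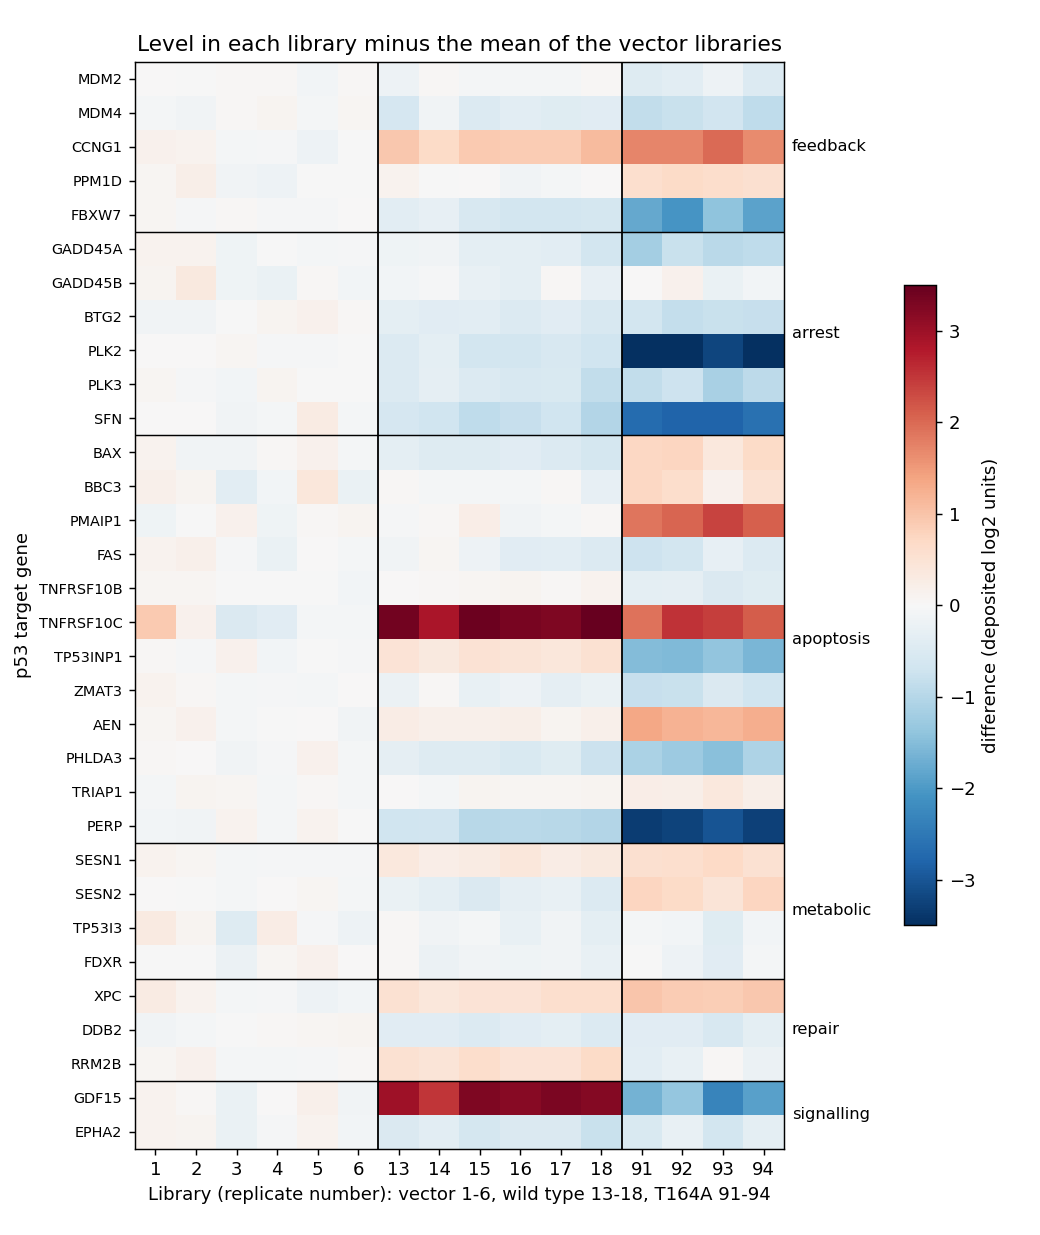
Level of each of the 32 p53 target genes in each library minus the mean of the 6 vector libraries (color, deposited log2 units; the scale ends at 3.5 in each direction), with genes in rows by role and libraries in columns by group. PLK2, SFN and PERP are lowest in the 4 libraries labelled T164A, and GDF15 and TNFRSF10C are highest in the 6 wild-type libraries.

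The arrest genes were the role in which no member was called higher in either comparison with the vector, and both comparisons share the 6 vector libraries. PLK2, a polo-like kinase of the G1 and S phases, was at 11.43 to 11.53 in vector (median 11.46) and at 10.77 to 11.12 in wild type (median 10.87), while the libraries labelled T164A were at 7.84, 7.89, 8.27 and 7.97. The 3 groups did not overlap in any pair. PLK2 fell by 0.56 in wild type (SE 0.07, limma adjusted p = 1.29e-07) and fell by 3.48 in the libraries labelled T164A (SE 0.07, limma adjusted p = 1.61e-22), where its level was 11.1-fold lower. SFN, the 14-3-3 protein sigma that holds mitotic cyclin complexes in the cytoplasm, had the second largest fall among the arrest genes in the libraries labelled T164A. It was at 13.76 to 14.17 in vector (median 13.85), at 12.86 to 13.31 in wild type (median 13.13), and at 11.19, 11.10, 11.08 and 11.27 in the libraries labelled T164A. SFN fell by 0.79 (SE 0.07, limma adjusted p = 1.6e-09) and fell by 2.73 (SE 0.08, limma adjusted p = 6.38e-20). Beside them, the median difference of the 10 basal markers was -0.59 in wild type (10 of 10 lower, against 24.5% of all symbols). It was -1.63 in the libraries labelled T164A (7 lower and 1 higher, against 27.2% and 37.1% of all symbols). The part of the basal markers in these falls was not tested.

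The other arrest genes moved by less. PLK3, a stress-responsive kinase of the same family, fell by 0.54 in wild type (SE 0.08) and fell by 0.92 in the libraries labelled T164A (SE 0.09), and BTG2, an antiproliferative co-regulator of transcription, fell by 0.43 (SE 0.06) and fell by 0.77 (SE 0.07). GADD45A, a stress sensor that binds PCNA and cyclin-dependent kinase complexes, fell by 0.32 (SE 0.08, limma adjusted p = 0.00124) and fell by 0.95 (SE 0.09, limma adjusted p = 2.93e-10). GADD45B, its relative, was not called in either comparison. Its differences were -0.16 (SE 0.09, limma adjusted p = 0.167) and -0.04 (SE 0.11, limma adjusted p = 0.756), and its 3 groups overlapped at 7.99 to 8.54, 7.86 to 8.25 and 7.98 to 8.36. Under quantile normalization GADD45B was called lower in both, by -0.30 (adjusted p = 0.00909) and -0.37 (adjusted p = 0.00293). The fall of GADD45A in wild type was lost when close libraries were averaged, so that those most alike counted as 1 (-0.24, adjusted p = 0.187). In that averaging wild-type replicate 14 and T164A replicate 93 each stayed alone. Each then weighed as much as the average of the rest of its group, here and in every use of it below.

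Among the apoptosis genes, the BCL2-family members PMAIP1, BAX and BBC3 were called higher in the libraries labelled T164A. PMAIP1, which encodes the BH3-only protein NOXA, was at 8.31 to 8.63 in vector (median 8.48) and 8.36 to 8.70 in wild type (median 8.47), against 10.35, 10.51, 10.84 and 10.55 in the libraries labelled T164A. All 4 of these lay above all 12 others. The rise was 2.10 (SE 0.09, limma adjusted p = 6.19e-17), or 4.28-fold, and in wild type the difference was 0.02 (SE 0.08, adjusted p = 0.894). BAX, the pore-forming effector, was at 9.70 to 9.97 in vector (median 9.83), at 9.22 to 9.49 in wild type (median 9.38) and at 10.55, 10.57, 10.21 and 10.50 in the libraries labelled T164A. Its groups did not overlap in any pair, with wild type lowest. BAX fell by 0.45 in wild type (SE 0.07, limma adjusted p = 4.5e-06) and rose by 0.63 in the libraries labelled T164A (SE 0.08, limma adjusted p = 5.12e-08). BBC3, which encodes the BH3-only protein PUMA, was at 7.80 to 8.59 in vector (median 8.17), at 7.90 to 8.23 in wild type (median 8.12) and at 8.90, 8.79, 8.34 and 8.71 in the libraries labelled T164A, the third of which lay within the vector range. BBC3 rose by 0.51 in the libraries labelled T164A (SE 0.12, limma adjusted p = 0.000721). That call was lost under quantile normalization (0.22, adjusted p = 0.103) and with close libraries averaged (0.29, adjusted p = 0.174).

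PERP, a membrane protein of desmosomes in stratified epithelium, was at 15.36 to 15.60 in vector (median 15.43), 14.44 to 14.81 in wild type (median 14.52) and 12.16, 12.24, 12.46 and 12.20 in the libraries labelled T164A. No pair of groups overlapped. PERP fell by 0.87 (SE 0.07, limma adjusted p = 3.31e-10) and fell by 3.20 (SE 0.08, limma adjusted p = 4.08e-21), where its level was 9.21-fold lower. PHLDA3, an inhibitor of AKT at the membrane, fell by 0.49 (SE 0.07) and fell by 1.22 (SE 0.08), and ZMAT3, an RNA-binding protein, fell by 0.19 (SE 0.06) and fell by 0.69 (SE 0.07). The ZMAT3 call in wild type was lost under quantile normalization (-0.13, adjusted p = 0.0679) and with close libraries averaged (-0.10, adjusted p = 0.665). In the annotation used (GENCODE, GRCh38), 22.2% of the exonic bases of PHLDA3 lie in another gene's exons, so its reads cannot be assigned with certainty.

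Of the receptors among the apoptosis genes, TNFRSF10C was called higher in the libraries labelled T164A, and TNFRSF10B and FAS, which carry a death domain, were called lower. TNFRSF10C, a decoy receptor for TRAIL that lacks a death domain, was at 3.02 to 4.44 in vector (median 3.46), at 6.39 to 7.05 in wild type (median 6.88) and at 5.43, 6.05, 5.94 and 5.65 in the libraries labelled T164A. No pair of groups overlapped, and the order was vector, T164A, wild type. TNFRSF10C rose by 3.30 in wild type (SE 0.21, limma adjusted p = 9.98e-13), or 9.83-fold, and by 2.24 in the libraries labelled T164A (SE 0.23, limma adjusted p = 2.51e-09). Its values are uncertain, because it is close in sequence to the other TRAIL receptors, because 42.7% of its exonic bases lie in exons of other annotated genes, and because its vector level lies not far above that of 3 reads. TNFRSF10B, a TRAIL receptor with a death domain, was at 11.92 to 12.10 in vector (median 12.01), 12.04 to 12.15 in wild type (median 12.08) and 11.67, 11.70, 11.52 and 11.60 in the libraries labelled T164A, which all lay below the others. It fell by 0.40 in the libraries labelled T164A (SE 0.05, limma adjusted p = 2.8e-07). In wild type the difference was 0.07 (SE 0.05, adjusted p = 0.273), called only under quantile normalization (0.15, adjusted p = 0.0121) among the 26 alternatives run. FAS, the receptor for FAS ligand, fell by 0.24 in wild type (SE 0.09, limma adjusted p = 0.0357) and fell by 0.53 in the libraries labelled T164A (SE 0.10, limma adjusted p = 6.61e-05). The first of these calls was lost without vector replicate 1 (adjusted p = 0.0785), 2 (0.0878) or 5 (0.0545), without wild-type replicate 16 (0.0873), 17 (0.078) or 18 (0.0989), without a variance trend (0.0643) and with close libraries averaged (0.601).

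Of the remaining apoptosis genes, TP53INP1 went opposite ways in the 2 comparisons. TP53INP1, which promotes p53 phosphorylation and autophagy, was at 10.50 to 10.73 in vector (median 10.56), at 10.92 to 11.13 in wild type (median 11.07) and at 9.08, 9.05, 9.21 and 9.0 in the libraries labelled T164A. It rose by 0.46 in wild type (SE 0.05, limma adjusted p = 1.01e-07) and fell by 1.5 in the libraries labelled T164A (SE 0.06, limma adjusted p = 2.44e-17), with no overlap between groups. AEN, an apoptosis-enhancing nuclease, was at 9.29 to 9.58 in vector (median 9.41), 9.52 to 9.67 in wild type (median 9.60) and 10.57 to 10.77 (median 10.67) in the libraries labelled T164A. Vector and wild type overlapped and the libraries labelled T164A lay above both. It rose by 0.18 (SE 0.05, limma adjusted p = 0.00981; lost with close libraries averaged, adjusted p = 0.393) and by 1.25 (SE 0.06, limma adjusted p = 1.34e-15). TRIAP1, a small mitochondrial protein that inhibits apoptosis, was at 9.15 to 9.31 in vector (median 9.20), 9.16 to 9.32 in wild type (median 9.28) and 9.45, 9.43, 9.58 and 9.43 in the libraries labelled T164A. It rose by 0.25 in the libraries labelled T164A (SE 0.06, limma adjusted p = 0.000792), a call lost under quantile normalization (0.08, adjusted p = 0.267) and median centring (0.11, adjusted p = 0.138), and in wild type differed by 0.05 (SE 0.06, adjusted p = 0.536).

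**Figure D3:**
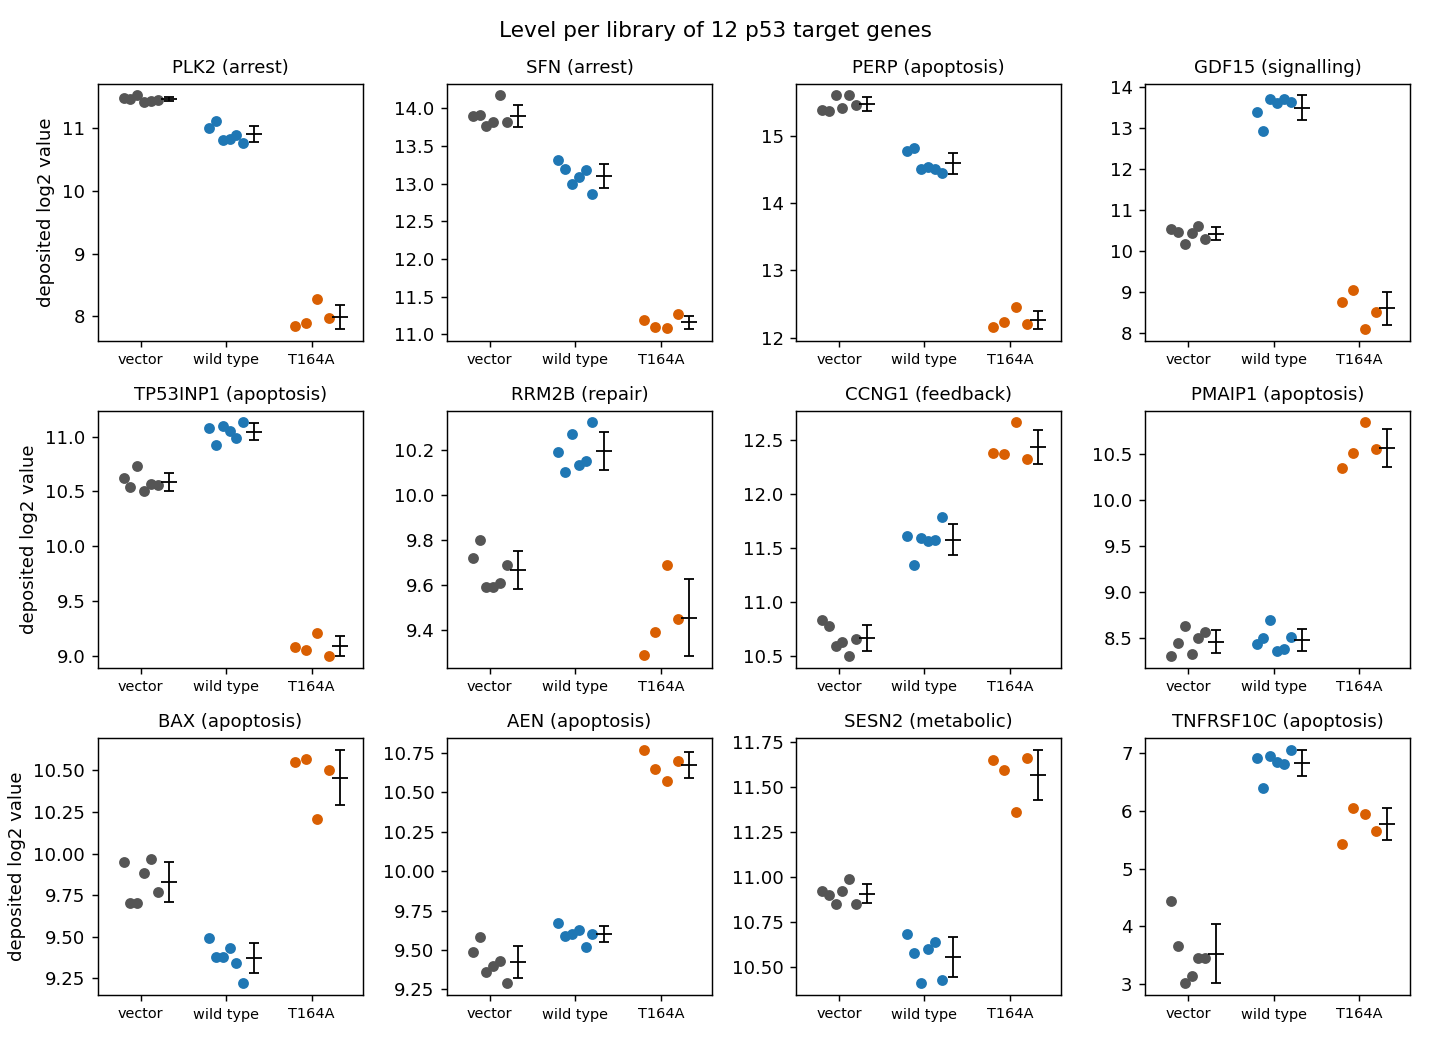
Deposited log2 value (vertical axis) of 12 p53 target genes in each library (points), by group, with the mean and SD of the group in black (n = 6, 6 and 4); axes start above 0 and differ between panels. By group mean, BAX and SESN2 are lowest in wild type and highest in T164A. TP53INP1, RRM2B and GDF15 are highest in wild type and lowest in T164A by the same measure. For RRM2B, T164A replicate 93 lies within the vector range.

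As first fitted, the metabolic genes differed from vector by 0.66 or less in either direction. SESN2, a stress-induced inhibitor of mTORC1, was at 10.85 to 10.99 in vector (median 10.91), at 10.41 to 10.68 in wild type (median 10.59) and at 11.65, 11.59, 11.36 and 11.66 in the libraries labelled T164A. No pair of groups overlapped. It fell by 0.35 in wild type (SE 0.06, limma adjusted p = 1.73e-05) and rose by 0.66 in the libraries labelled T164A (SE 0.06, limma adjusted p = 1.27e-09). SESN1, its relative, rose by 0.32 in wild type (SE 0.06, limma adjusted p = 3.52e-05) and by 0.59 in the libraries labelled T164A (SE 0.06, limma adjusted p = 4.68e-09), the first call being lost with close libraries averaged (0.28, adjusted p = 0.111). FDXR, the mitochondrial ferredoxin reductase, had a vector mean of 9.24 ± 0.11 (SD, n = 6). Its mean was 9.11 ± 0.10 (SD, n = 6) for wild type, and 9.07 ± 0.18 (SD, n = 4) for the libraries labelled T164A. TP53I3, a quinone oxidoreductase, was at 7.24 ± 0.28, 7.09 ± 0.14 and 7.06 ± 0.17 over the same libraries. Neither was called against vector, FDXR differing by -0.13 (SE 0.07, limma adjusted p = 0.151) and -0.16 (SE 0.08, limma adjusted p = 0.0753) and TP53I3 by -0.15 (SE 0.12, limma adjusted p = 0.329) and -0.18 (SE 0.13, limma adjusted p = 0.244). Under quantile normalization FDXR and TP53I3 were called lower in both comparisons (FDXR -0.17, adjusted p = 0.0481, and -0.37, adjusted p = 0.000183; TP53I3 -0.37, adjusted p = 0.00786, and -0.66, adjusted p = 4.7e-05). FDXR was also called lower in the libraries labelled T164A under median centring (-0.31) and without vector replicate 3 (-0.21, adjusted p = 0.027) or T164A replicate 91 (-0.22, adjusted p = 0.0323), and TP53I3 under median centring (-0.33, adjusted p = 0.0282). Wild type exceeded the libraries labelled T164A under quantile normalization in FDXR (0.20, adjusted p = 0.0302) and TP53I3 (0.29, adjusted p = 0.0479), and neither was called in that comparison otherwise. C12orf5, the older symbol of TIGAR, a regulator of glycolysis, is no member by the rule. C12orf5 was lower than in vector both in wild type (-0.44, SE 0.07, limma adjusted p = 7.02e-06) and in the libraries labelled T164A (-0.47, SE 0.08, limma adjusted p = 5.62e-06).

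All 3 repair genes were called in both comparisons with the vector. RRM2B, the p53-inducible small subunit of ribonucleotide reductase, was at 9.59 to 9.80 in vector (median 9.65), at 10.10 to 10.32 in wild type (median 10.17) and at 9.29, 9.39, 9.69 and 9.45 in the libraries labelled T164A. Wild type lay above all others, and T164A replicate 93 lay within the vector range. RRM2B rose by 0.53 in wild type (SE 0.06, limma adjusted p = 1.62e-07) and fell by 0.21 in the libraries labelled T164A (SE 0.07, limma adjusted p = 0.0115). The fall was lost without T164A replicate 91 (-0.16, adjusted p = 0.0747) and with close libraries averaged (-0.13, adjusted p = 0.407). XPC, the damage sensor of nucleotide excision repair, rose by 0.51 (SE 0.07) in wild type and by 0.91 (SE 0.07) in the libraries labelled T164A. In the annotation used, 24.9% of its exonic bases lie in exons of genes on the opposite strand, and the counting is not stated to use strand. DDB2, another recognition factor of that pathway, fell by 0.42 (SE 0.05) and fell by 0.43 (SE 0.06), from 10.85 ± 0.08 (SD, n = 6) in vector to 10.43 ± 0.05 (n = 6) and 10.42 ± 0.09 (n = 4).

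The feedback regulators included the member with the smallest difference in wild type, PPM1D. MDM2 was at 11.16 to 11.30 in vector (median 11.28), at 11.09 to 11.31 in wild type (median 11.20) and at 10.81, 10.89, 11.09 and 10.79 in the libraries labelled T164A. Vector and wild type overlapped, and the libraries labelled T164A lay below all vector libraries. The difference in wild type was -0.05 (SE 0.06, limma adjusted p = 0.548), and MDM2 fell by 0.36 in the libraries labelled T164A (SE 0.06, limma adjusted p = 9.13e-06), with an adjusted p of 0.0502 when close libraries were averaged (-0.28). Of the exonic bases of MDM2, 9.62% lie in other annotated genes. MDM4 fell by 0.39 (SE 0.07, limma adjusted p = 1.9e-05) and fell by 0.79 (SE 0.07, limma adjusted p = 3.73e-10), and the first call was lost with close libraries averaged (-0.26, adjusted p = 0.177). PPM1D, the phosphatase WIP1 that dephosphorylates p53, was at 8.30 to 8.68 in vector (median 8.46), at 8.35 to 8.60 in wild type (median 8.47) and at 9.07, 9.14, 9.08 and 9.02 in the libraries labelled T164A. It rose by 0.61 there (SE 0.08, limma adjusted p = 8.65e-08), and in wild type the difference rounded to 0.00 (SE 0.07, adjusted p = 0.97).

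CCNG1, cyclin G1, which recruits a phosphatase to MDM2, was at 10.50 to 10.83 in vector (median 10.64), at 11.34 to 11.79 in wild type (median 11.58) and at 12.38, 12.37, 12.66 and 12.32 in the libraries labelled T164A. The groups formed 3 separate ranges. CCNG1 rose by 0.91 (SE 0.07, limma adjusted p = 6.78e-11) and by 1.76 (SE 0.08, limma adjusted p = 1.93e-16), or 1.88-fold and 3.4-fold. FBXW7, the substrate receptor of a ubiquitin ligase for cyclin E, also formed 3 separate ranges, at 10.82 to 10.93 (median 10.85), 10.22 to 10.58 (median 10.29) and 8.81 to 9.45 (median 9.03). It fell by 0.52 (SE 0.08, limma adjusted p = 6.61e-06) and fell by 1.79 (SE 0.09, limma adjusted p = 1.89e-15).

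GDF15, a secreted stress cytokine of the TGF-beta family, had the largest difference between wild type and the libraries labelled T164A of any member. It was at 10.18 to 10.61 in vector (median 10.45). The wild-type libraries were at 13.39, 12.93, 13.69, 13.61, 13.71 and 13.62 (replicates 13 to 18), and the libraries labelled T164A at 8.76, 9.06, 8.11 and 8.52. No pair of groups overlapped. GDF15 rose by 3.07 in wild type (SE 0.13, limma adjusted p = 2.57e-16), or 8.4-fold, and fell by 1.81 in the libraries labelled T164A (SE 0.14, limma adjusted p = 1.51e-11), or 3.5-fold. Wild-type replicate 14 had the lowest GDF15 of its group and also the lowest summed level of luminal markers (15.68, against 16.34 to 16.72 in the other 5). Whether the 2 move together was not tested. EPHA2, a receptor tyrosine kinase, fell by 0.54 (SE 0.07, limma adjusted p = 1.32e-06) and fell by 0.44 (SE 0.08, limma adjusted p = 4.13e-05).

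**Figure D4:**
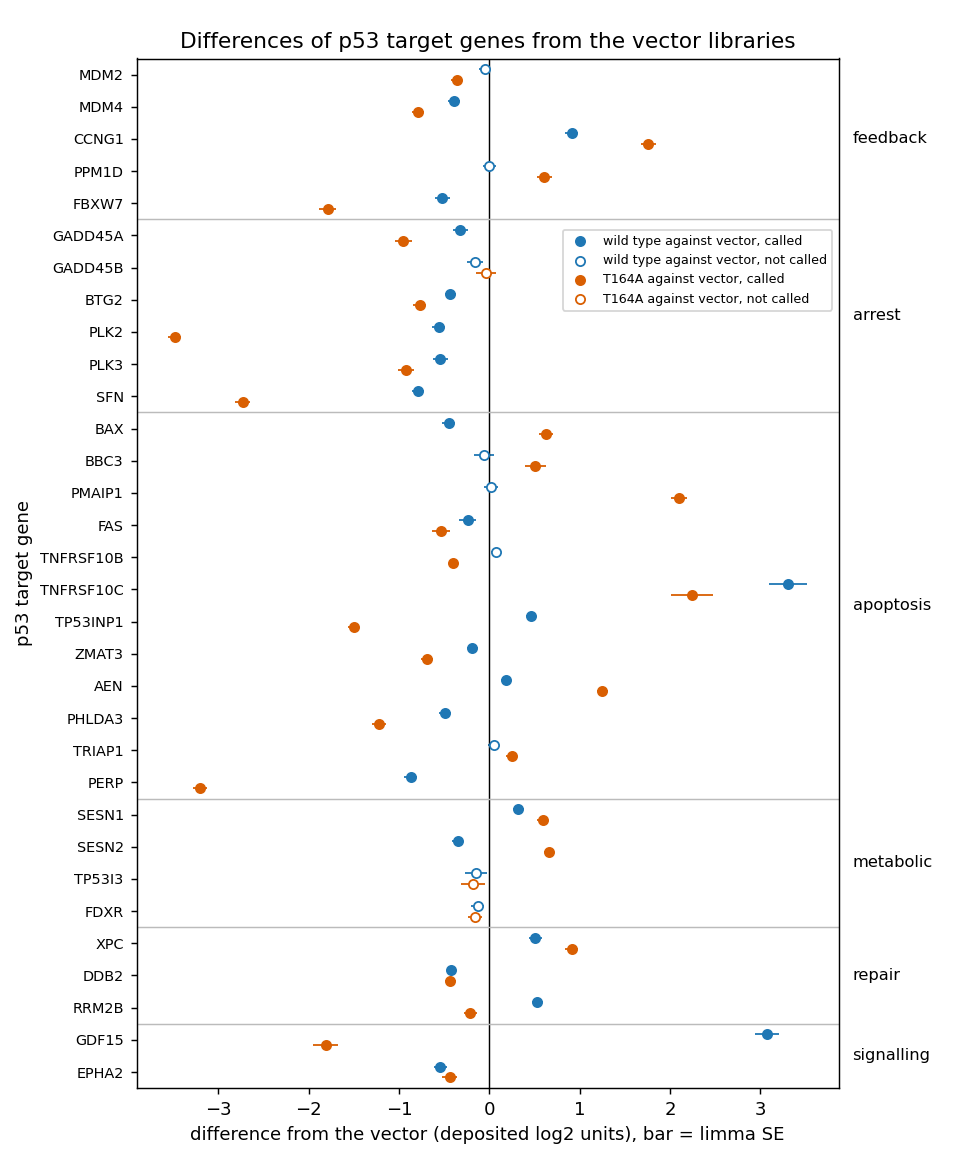
Difference of each p53 target gene from the vector (horizontal axis, deposited log2 units; bars are the limma SE) in wild type (blue) and in the libraries labelled T164A (orange), by role; filled points passed the threshold and open points did not. Filled points of the arrest genes all lie left of 0, while those of the apoptosis genes lie on both sides, from -3.20 (PERP, T164A) to 3.30 (TNFRSF10C, wild type).

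The 2 comparisons with the vector share their controls, so their calls are given side by side without an overlap. TP53INP1, RRM2B and GDF15 were higher in wild type and lower in the libraries labelled T164A, and BAX and SESN2 the reverse. PPM1D, BBC3, PMAIP1 and TRIAP1 were called higher, and MDM2 and TNFRSF10B lower, in the libraries labelled T164A without a call in wild type. GADD45B, FDXR and TP53I3 were called in neither. The direct comparison of wild type with the libraries labelled T164A reuses the same libraries and fit, so it is no independent check. It called 17 members higher and 10 lower in wild type (limma; 84.4%, against 61.8% of all symbols, 26.7% higher and 35.1% lower, and 80.1% of symbols at the same levels). The groups did not overlap for 24 members (52.4% of all symbols), and 11 were called at 2-fold or more (28.8% of all symbols). Among the 10040 symbols at the members' levels these numbers were 6884 and 2125. The median difference of the members was 0.30, against -0.08 over all symbols. Quantile normalization moved the median of well measured symbols by 0.14 here and gave 19 higher and 9 lower members.

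In the direct comparison, wild type exceeded the libraries labelled T164A in GDF15 by 4.88 (SE 0.14, limma adjusted p = 6.26e-20), or 29.4-fold, in PLK2 by 2.92 (SE 0.07, limma adjusted p = 5.3e-21), in PERP by 2.33 (SE 0.08, limma adjusted p = 2.71e-18), in TP53INP1 by 1.96 (SE 0.06, limma adjusted p = 1.8e-19) and in SFN by 1.94 (SE 0.08, limma adjusted p = 7.84e-17). It was lower in PMAIP1 (-2.08, SE 0.09, limma adjusted p = 1.15e-16), BAX (-1.09, SE 0.08), AEN (-1.07, SE 0.06), SESN2 (-1.01, SE 0.06) and CCNG1 (-0.85, SE 0.08). The 6 members called against vector only for the libraries labelled T164A were picked from the same fit, so calls here were likely beforehand. All 6 were called: PPM1D (-0.61), BBC3 (-0.57), PMAIP1 and TRIAP1 (-0.21) lower in wild type, and MDM2 (0.32) and TNFRSF10B (0.46) higher. TRIAP1 lost that call under quantile normalization (-0.07, adjusted p = 0.351), under median centring (-0.08, adjusted p = 0.295) and with close libraries averaged (-0.29, adjusted p = 0.0745), as did MDM2 (0.29, adjusted p = 0.0645) and BBC3 (-0.46, adjusted p = 0.0512) in the last of these. FAS was higher in wild type by 0.29 (adjusted p = 0.0179), lost without T164A replicate 91 (0.23, adjusted p = 0.0854) or 92 (0.26, adjusted p = 0.0591) and with close libraries averaged (0.33, adjusted p = 0.11). By role, 5 of 6 arrest genes were higher in wild type and 0 lower, 7 of 12 apoptosis genes were higher and 5 lower, and 2 of 4 metabolic genes were lower and 0 higher. The 5 members without a call were GADD45B, FDXR, TP53I3, DDB2 and EPHA2. Wild type and the libraries labelled T164A differed by 0.01 (SE 0.06) in DDB2 and by -0.10 (SE 0.08) in EPHA2. DDB2 was called under median centring (0.14, adjusted p = 0.0455), and EPHA2 with array weights (-0.15, adjusted p = 0.045) and without wild-type 14 and T164A 93 (-0.20, adjusted p = 0.034).

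Within groups, the members varied as much as other genes at their levels in vector, with a median SD of 0.107 in both, and somewhat more in wild type (0.12, against 0.107) and in the libraries labelled T164A (0.156, against 0.127). These are descriptions without a test. Among the vector libraries, TNFRSF10C (3.02 to 4.44), BBC3 (7.80 to 8.59) and TP53I3 (6.80 to 7.55) had the widest ranges, and vector replicate 3 was the lowest of its group for 15 of 32 members. Wild-type replicate 14 was the wild-type library nearest to the vector mean for 17 of 32 members. Replicate 18, with the highest luminal sum (16.72), was the lowest of the group for 14 and the highest for 7. T164A replicate 93 was the nearest of its group to the vector mean for 14 members, the highest for 13 and the lowest for 15. Estimated depth was 19200000 reads in wild-type replicate 14, 12300000 in wild-type replicate 18 and 12800000 in T164A replicate 93. The part of depth was not tested. Leaving out wild-type 14 and T164A 93 together left the number of members called in each direction against vector at 8 and 15, and at 11 and 18, and gave 17 and 11 in the direct comparison.

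Other p53 targets outside the list were read from 40 further symbols. In wild type 8 rose and 20 fell (70% called, limma, against 45.5% of all symbols and 66.4% of symbols at the members' levels), with a median difference of -0.20, against -0.05 over all symbols. The rises with the smallest p were TNFRSF10D, another TRAIL decoy receptor, by 3.66 (SE 0.12), CMBL, a hydrolase, by 4.61 (SE 0.17), TP53I11 by 2.06 (SE 0.11) and CYFIP2 by 1.48 (SE 0.10). Among the falls with the smallest p were RAP2B, a small GTPase (-0.68, SE 0.06), TGFA, an EGF receptor ligand (-0.72, SE 0.09), and TRIM22, an interferon-induced protein (-0.62, SE 0.08). In the libraries labelled T164A 15 rose and 21 fell (90% called, against 64.4% and 83.8%), with a median of -0.22, against 0.11. By p-value, CYFIP2 (3.15, SE 0.11), EI24 (1.45, SE 0.06), CMBL (4.19, SE 0.19) and TP53I11 (2.23, SE 0.12) led the rises, and TRIM22 (-4.28, SE 0.09), KIAA0247 (-1.40, SE 0.06) and TRIM5 (-1.29, SE 0.07) were among the leading falls. In the direct comparison 19 of the 40 were higher in wild type and 12 lower. That is 77.5% called (limma), against 61.8% of all symbols and 80.1% of symbols at the members' levels. Among them were TNFRSF10A, a TRAIL receptor with a death domain, higher by 1.49 (SE 0.08), and APAF1, the core of the apoptosome, lower (-1.36, SE 0.08). EI24 and PLTP (-2.65, SE 0.16) were also lower in wild type.

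Of 20 regulators of p53, 5 rose and 7 fell in wild type (60% called, limma, against 45.5% of all symbols and 66.4% at the members' levels), with a median of -0.06. In the libraries labelled T164A 14 rose and 4 fell (90% called, against 64.4% and 83.8%), with a median of 0.54. HIPK2, a kinase that phosphorylates p53, rose by 1.64 (SE 0.06) and by 2.48 (SE 0.07). In wild type, SETD7, a lysine methyltransferase, rose by 0.73 (SE 0.05), PRMT5, an arginine methyltransferase, by 0.18 (SE 0.05) and RCHY1, a ubiquitin ligase for p53, by 0.21 (SE 0.08). PPP1R13L, the inhibitory protein iASPP, fell by 0.73 (SE 0.08), the kinase DYRK2 fell by 0.43 (SE 0.06), the methyltransferase SMYD2 fell by 0.50 (SE 0.05) and PPP1R13B fell by 0.28 (SE 0.06). In the libraries labelled T164A, TP53BP2, the activator ASPP2, rose by 1.0 (SE 0.06), PRMT5 by 1.06 (SE 0.06) and USP10, a deubiquitinase of p53, by 0.79 (SE 0.05). The 4 falls there were in PPP1R13L (-1.48, SE 0.09), UBE3A (-0.77, SE 0.08), TP53BP1 (-0.26, SE 0.06) and PPP1R13B (-0.26, SE 0.07). UBE3A encodes the ligase that papillomavirus E6 directs to p53. In the direct comparison 2 of the 20 were higher in wild type, UBE3A by 0.71 (SE 0.08) and PPP1R13L by 0.75 (SE 0.09). Another 13 were lower, led by p-value by TP53BP2, USP10, PRMT5 and SMYD2. That is 75% called (limma), against 61.8% of all symbols and 80.1% at the members' levels. At those levels 33.4% of symbols were higher in wild type and 46.6% lower.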

How the data were processed

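Libraries were made from poly-A RNA with a TruSeq kit and read on a HiSeq 2000, according to the labels. What the authors deposited is 1 file of log2 expression values (21594 rows, 16 libraries). Tools named in the submitters' processing notes, without roles, are DESeq, Cufflinks 2.0.2, TopHat2 2.0.4 and CASAVA 1.8.2, and the build is GRCh37; counting, strand and the transformation are not given in the sources used here. Above 11.5, with the very highest values left out of the check, 100% of linear values in each library lay within 0.05 of equal steps after an offset of 1.89, against 8.46% to 11.7% between 10 and 10.5. Steps gave the depth; read counts were not recovered below that level, so no count test was run.

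Of 1732 rows sharing 304 symbols, the row with the highest mean was kept. All 16 libraries entered 1 limma fit (limma 3.58.1, R 4.3.3) with moderated variances that follow a trend in mean level and 13 residual degrees of freedom and 3 two-sided contrasts and no filter on low values. The fit was tested on simulated data with independent libraries, which cannot speak to close or outlying libraries. The members and lists were chosen with earlier results of these data known. Genes given per library were the 6 largest called differences per comparison and members whose calls differed between comparisons with the vector (AEN was plotted as well, for its promoter match); from the other lists, up to 4 called genes per direction with the smallest p. Gene overlaps come from GENCODE (GRCh38) and promoters from RefSeq (GRCh38.p14), a build other than the files'. Not reported here are the values of the over-expressed gene itself and some results from the other lists. Alternatives were quantile normalization, median centring, a low-value filter, only the groups compared, array weights, no trend, a minimum fold of 1.2, the mean of repeated rows, averaging close libraries to 7 values, and leaving out libraries.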

Additional observations from a re-analysis of the deposited data

Results flagged for a closer look

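Of 96 sets of values (32 members in 3 groups), 6 held 1 library farther from the rest of its group than Dixon's test allows; chance gives about 1 set in 20. T164A replicate 93 gave 3 of them, with TP53I3 lowest at 6.81, CCNG1 highest at 12.66 and TRIAP1 highest at 9.58. Wild-type replicate 18 was lowest in BBC3 at 7.90, and wild-type replicate 14 was lowest in TNFRSF10C at 6.39. Vector replicate 5 was highest in SFN at 14.17.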

How the results depend on the processing

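No paired analysis was possible because the groups share no replicate numbers. Of 79 called member differences, 59 kept their call in all 26 alternatives per comparison; 19 were lost under a minimum fold of 1.2, which by construction drops small differences, 13 with close libraries averaged, 4 under quantile normalization and 2 under median centring; apart from the minimum fold the cause was not tested. Over all symbols, wild type against vector gave 2513 higher and 1578 lower under the minimum fold and 2274 and 1547 with close libraries averaged, against 4244 and 4939. Member counts stayed within 1.5 times throughout; with close libraries averaged they were 6 higher and 11 lower in wild type, 10 and 16 in the libraries labelled T164A, and 15 and 8 in the direct comparison. Member differences that changed sign were all uncalled on both sides. In wild type against vector these were MDM2 (0.02 under quantile normalization and 0.02 with close libraries averaged), PMAIP1 (-0.09 under quantile normalization; -0.03 to 0.05 leaving out 1 library) and BBC3 (-0.14 to 0.02 leaving out 1 library). In T164A against vector it was GADD45B (0.03 with array weights, 0.02 without wild-type 14 and T164A 93, -0.11 to 0.02 leaving out 1 library). In wild type against T164A they were GADD45B (0.07 quantile, 0.01 median-centred), EPHA2 (0.01 quantile, 0.03 median-centred, 0.04 close libraries averaged), FDXR (-0.02 with array weights, -0.03 without both libraries, -0.05 to 0.09 leaving out 1), TP53I3 (-0.04, -0.06 and -0.05 to 0.07 likewise) and DDB2 (-0.02, -0.03 and -0.03 to 0.04 likewise); the cause was not tested. Differences that round to 0.00 were given no direction. The close sets came from an earlier analysis of these libraries and match the distances in part only. Vector 4 and 5 were kept apart at an SD of 0.15, while pairs averaged in vector reached 0.151. In wild type, pairs averaged together reached 0.186 (replicates 13 and 18). Depth limits TNFRSF10C most.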
